A study of Mus musculus with 6 samples.

Results

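The IL-10 family was followed here as 8 genes, the 5 ligand genes Il24, Il10, Il22, Il20 and Il19 and the 3 receptor chain genes Il10ra, Il10rb and Il20rb, out of 46517 genes measured. These members were chosen by family membership and on their counts in the comparison described here, so their own differences are given as descriptions without a test. CD8 T cells of C57BL/6J mice were activated over 3 days by anti-CD3 bound to the plate (5 µg/mL), anti-CD28 (0.5 µg/mL) and IL-2 (100 units/mL). From day 1 to day 2 they were exposed to medium conditioned by sorted basophils, rare granulocytes, whose 2-day culture held IL-2 together with IL-3 (3 ng/mL) or with PBS. These are called the IL-3 supernatant and the PBS supernatant groups, with 3 poly(A) RNA libraries each. Both groups thus share activation, IL-2 and basophil medium, and what basophils released under IL-3 and IL-3 carried over with the medium cannot be told apart. Whether the replicates are separate mice or cultures is not stated in the labels, so all errors and p-values cover the spread between these libraries only, which may be technical.

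Cytokines of the IL-10 family act through paired receptor chains of the class II cytokine receptor type, which are coupled to the kinases Jak1 and Tyk2 and chiefly to the transcription factor Stat3. IL-10 uses the private chain Il10ra with the shared chain Il10rb and limits inflammatory responses. IL-22 pairs Il22ra1 with Il10rb, while IL-19, IL-20 and IL-24 use Il20rb with Il20ra or, for IL-20 and IL-24, with Il22ra1. The chains Il20ra and Il22ra1 are known mainly from epithelial cells, and Il24 and Il10 are known products of type 2 helper T cells.

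Il24, Il20, Il19 and Il10 lie side by side within 142.901 kb of chromosome 1 (GRCm38). Il24 occupies chr1:130882074-130887454, Il20 chr1:130906985-130911451 and Il19 chr1:130932656-130940115, all on the minus strand, and Il10 follows at chr1:131019845-131024974 on the plus strand. The gaps measured 19.530 kb between Il24 and Il20, 21.204 kb between Il20 and Il19 and 79.729 kb between Il19 and Il10. Il22 lies alone on chromosome 10 at chr10:118204942-118210047, plus strand. Its near-identical copy Iltifb lies 79.582 kb away on the minus strand, so reads of the pair could be divided wrongly between them. Both coding sequences have 537 bases, of which 9 differ (98.3% identity). The stretch from coding base 98 to 217 holds 5 of these differences. It is shown because no stretch of 120 coding bases holds more, though others may hold as many. Bases outside the coding sequence were not searched for it. Differing bases are in capitals (introns removed; coding spans chr10:118204991-118209523, plus strand, and chr10:118290154-118294989, minus strand).
Il22: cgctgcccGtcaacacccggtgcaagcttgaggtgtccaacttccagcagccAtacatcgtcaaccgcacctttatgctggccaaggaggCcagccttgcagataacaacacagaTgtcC
Iltifb: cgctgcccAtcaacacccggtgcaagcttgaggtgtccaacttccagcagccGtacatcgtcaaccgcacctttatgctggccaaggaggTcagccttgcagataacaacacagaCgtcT
Counted from the first coding base, with the base of Il22 first, these are G106A, A150G, C188T, T213C and C217T. Of all windows of 50 bases in the main Il22 transcript, 59.0% occur in no other gene's transcript, and the rest are shared with Iltifb, which had 0 counts in all 6 libraries. The same share was 100% for Il24, Il10, Il19, Il20, Il10ra and Il20rb.

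Promoter sequence from RefSeq (GRCm38.p6) was held for 4 of the 8 members. Those of Il19 and Il20, are shown because these genes lie between Il24 and Il10 and yet carried almost no counts. The 250 bases before the Il19 start, with matches in capitals, lie at chr1:130940116-130940365 on the minus strand.
Il19: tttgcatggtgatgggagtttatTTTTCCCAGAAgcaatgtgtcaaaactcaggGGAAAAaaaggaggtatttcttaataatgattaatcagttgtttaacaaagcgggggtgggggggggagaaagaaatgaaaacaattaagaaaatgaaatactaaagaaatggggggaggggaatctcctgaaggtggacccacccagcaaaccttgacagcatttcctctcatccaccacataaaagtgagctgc
The capitals mark TTCCCAGAA, a match to the STAT letters TTCNNNGAA that begins 225 bases before the start, and the NFAT letters GGAAAA on either strand, the first of which overlaps it as TTTTCC. The STAT letters were found in 7.02% of 32851 mouse promoter windows of this length and GGAAAA in 20.4%. The Il20 window held the longer STAT form TTCNNNNGAA once, 104 bases before the start that RefSeq gives, within chr1:130911381-130911410 on the minus strand. RefSeq and GENCODE place this start differently, and by the GENCODE position given above the match lies inside the gene.
Il20: gaagcagcttTTCTTAGGAAgttgtgtgaa
That form was found in 5.85% of the windows. Both strands were searched, also for AGATAA (bound by Gata3 and its relatives; in 9.99% of windows), TGANTCA (AP-1; 6.75%) and TGCTGA (the Maf half-site; 16.1%), none of which was in the Il19 or Il20 window. These are matches of letters and say nothing of binding.

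Total expected counts per library ranged from 17377052 to 22174902, so a limit of 3 counts for a gene with 0 corresponds to 0.135 to 0.173 CPM, counts scaled to library size, which like all counting intervals here covers counting error only. Of 12407 genes that passed the filter on low counts, edgeR's quasi-likelihood test with Benjamini-Hochberg adjustment (threshold 0.05) called 1834 higher in the IL-3 supernatant group (14.8%) and 2001 lower (16.1%), or 30.9% in either direction. The median log2 fold change of all tested genes was -0.0047. All 10 CD8 T cell markers were detected, with a summed level of 2940 to 3180 CPM in the PBS supernatant libraries and 2082 to 2260 CPM in the IL-3 supernatant libraries. PBS supernatant replicate 2 stood apart in that the RNA CT010467.1 took 4.51% of its counts, against 0.433% to 2.2% elsewhere. Of the 8 members 6 passed the filter, and Il24, Il10 and Il22 passed only through their counts with IL-3 supernatant, so that they had to differ. Among these 6, the values of the groups overlapped only for Il20rb. As the members were picked on this contrast, nothing is read from this. The 30.9% above is the share of all tested genes that were called, not of genes without overlap. The share of all tested genes without overlap is not given here.

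Il24 and Il10 transcripts were far more abundant in CD8 T cells given IL-3 supernatant, and some Il22 transcript appeared, whereas Il20 and Il19 stayed at or close to 0. Among the receptor chains, Il10ra was modestly higher, Il10rb was lower, and Il20rb did not separate the groups. Since RNA was measured in bulk, fewer expressing cells and less RNA per cell cannot be told apart for any of these genes.

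**Figure D1:**
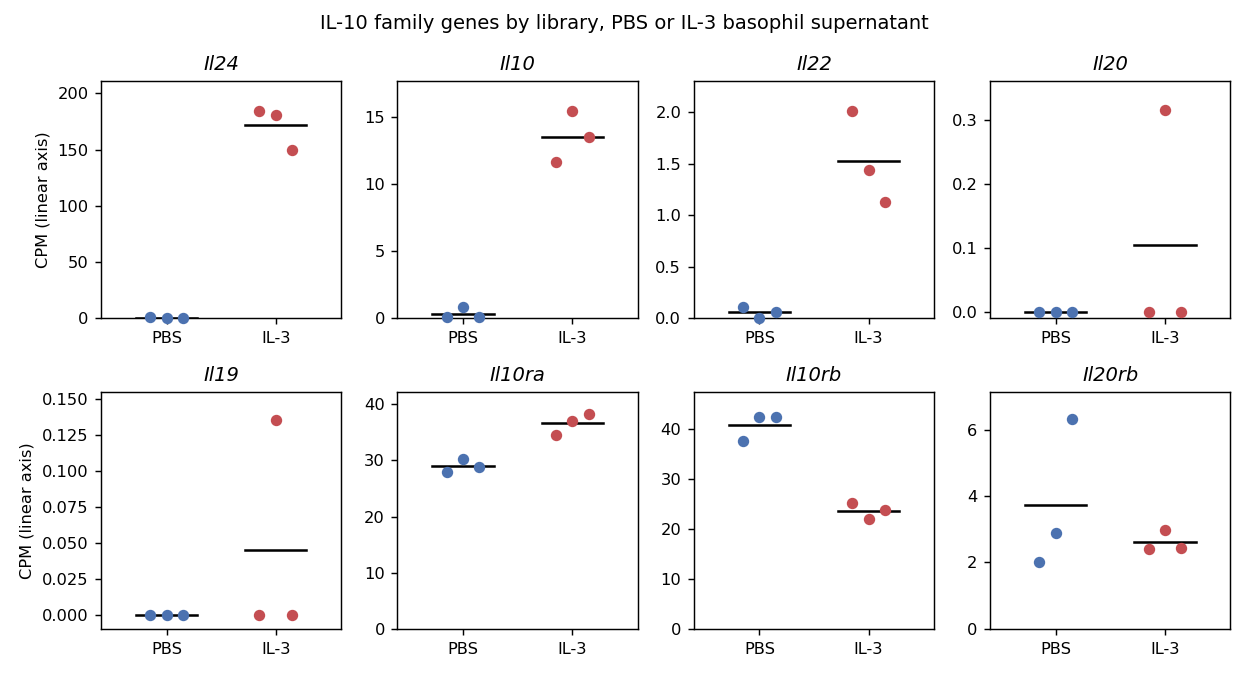
CPM of each of the 8 genes in the 3 PBS supernatant libraries (blue) and the 3 IL-3 supernatant libraries (red), on linear axes with a separate range per gene; points are libraries and lines are group means. Il24, Il10, Il22 and Il10ra are higher and Il10rb is lower in every IL-3 supernatant library, Il20 and Il19 have counts in 1 library only, and Il20rb overlaps.

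Il24 encodes a cytokine that signals to cells bearing Il20rb with Il20ra or Il22ra1. Its counts were 12, 6 and 4 in PBS supernatant replicates 1, 2 and 3, and 3577, 4011 and 2929 in IL-3 supernatant replicates 1, 2 and 3. All 3 IL-3 supernatant libraries were high and all 3 PBS supernatant libraries close to the limit of detection, with no overlap. The mean level was 0.409 ± 0.230 CPM in the PBS supernatant group and 171 ± 19.1 CPM in the other (SD, n = 3 each). The fitted log2 fold change was 8.68 (SE 0.18), or 411-fold. Per length, Il24 reached 315, 309 and 258 TPM (transcript abundance scaled for length and library) with IL-3 supernatant, against 1.21, 0.533 and 0.384 TPM with PBS supernatant. By TPM it ranked 469, 487 and 610 among all genes of the 3 IL-3 supernatant libraries and no higher than 11371 in the PBS supernatant libraries. Il24 was thus barely detected in one group and an abundant transcript in the other.

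Il10, the founding ligand of the family, had counts of 1, 15 and 1 with PBS supernatant and of 226, 343 and 264 with IL-3 supernatant. All IL-3 supernatant libraries were high, and 15 of the 17 counts of the PBS supernatant group came from replicate 2. That replicate is also the one with the large share of CT010467.1, whose part in this value was not tested. Mean levels were 0.315 ± 0.447 CPM and 13.5 ± 1.90 CPM (SD, n = 3 per group). The log2 fold change was 5.39 (SE 0.55), or 41.8-fold, and 7.76 without PBS supernatant replicate 2. It was 3.95 on log2(TPM + 1) and 6.20 with limma-voom, so the size depends on how the few counts of the PBS supernatant group are treated. In TPM, Il10 stood at 17.3, 23.0 and 20.3 with IL-3 supernatant and at 0.0840, 1.17 and 0.0848 with PBS supernatant. Il24 transcript exceeded Il10 transcript 18.2-, 13.4- and 12.7-fold per length in the IL-3 supernatant libraries, where Il24 made up 92.0% to 93.8% of the summed TPM of the 5 ligands. In the PBS supernatant libraries the share of Il24 ranged from 31.2% to 81.1%, but it rested on 4 to 12 counts.

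Il22 encodes a cytokine that acts on epithelial cells. It had 2, 0 and 1 counts with PBS supernatant and 39, 32 and 22 with IL-3 supernatant, so the groups did not overlap but the level stayed low. The ratio of summed counts, 93 against 3, scaled to library size was 27.1 (95% exact binomial interval 9.0 to 134). The fitted log2 fold change of 4.61 (SE 0.68) depends on the prior count of the fit. Per length, Il22 stood at 3.53, 2.53 and 2.00 TPM with IL-3 supernatant, far below Il24 and Il10 in the same libraries.

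Il20 and Il19, ligands of the receptors made with Il20rb, did not pass the filter. Il20 had 7 counts and Il19 had 3 counts in IL-3 supernatant replicate 2, and both had 0 counts in the other 5 libraries. The exact 95% binomial lower limit of the ratio of summed counts was 1.26 for Il20 and 0.362 for Il19, but a single library carried these counts. The groups overlapped at 0 for both genes, and no fold is given because both group means lie under the limit of 3 counts per library. The 2 genes between Il24 and Il10 on the chromosome therefore showed at most 0.315 CPM in any library.

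Tested genes around the cluster differed far less than Il24 and Il10. Of 39 measured genes within 500 kb of it, 12 could be tested, with a median log2 fold change of 0.05. Of these 12, 3 were called higher and 2 lower, against 14.8% and 16.1% of all tested genes. Mapkapk2, a kinase of the p38 pathway, lies beyond Il10 and stood at 211 ± 6.40 and 290 ± 9.27 CPM in the PBS and IL-3 supernatant groups (log2 fold change 0.46, SE 0.05, edgeR adjusted p = 3.4e-06). Dyrk3, a protein kinase gene, differed by 0.53 (SE 0.11, edgeR adjusted p = 0.0011) and Yod1, a deubiquitinase gene, by 0.40 (SE 0.11, edgeR adjusted p = 0.011; edgeR adjusted p = 0.057 without PBS supernatant replicate 3). The lower calls were Ikbke, an IKK-related kinase gene, at -0.29 (SE 0.10, edgeR adjusted p = 0.030) and Rassf5, which encodes an adaptor of lymphocyte adhesion, at -0.16 (SE 0.06, edgeR adjusted p = 0.046). Without PBS supernatant replicate 3 neither lower call held (edgeR adjusted p = 0.134 for Ikbke and 0.244 for Rassf5). Both were also lost without IL-3 supernatant replicate 1 (edgeR adjusted p = 0.128 and 0.125) or replicate 2 (edgeR adjusted p = 0.152 and 0.115). Rassf5 was lost with DESeq2 (DESeq2 adjusted p = 0.063) and limma-voom (limma adjusted p = 0.056) as well. Fcmr, the closest gene to Il24 outside the cluster at 1.283 kb, encodes an IgM receptor and differed by 0.80 on the log2 scale without being called (SE 0.43, edgeR adjusted p = 0.177).

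**Figure D2:**
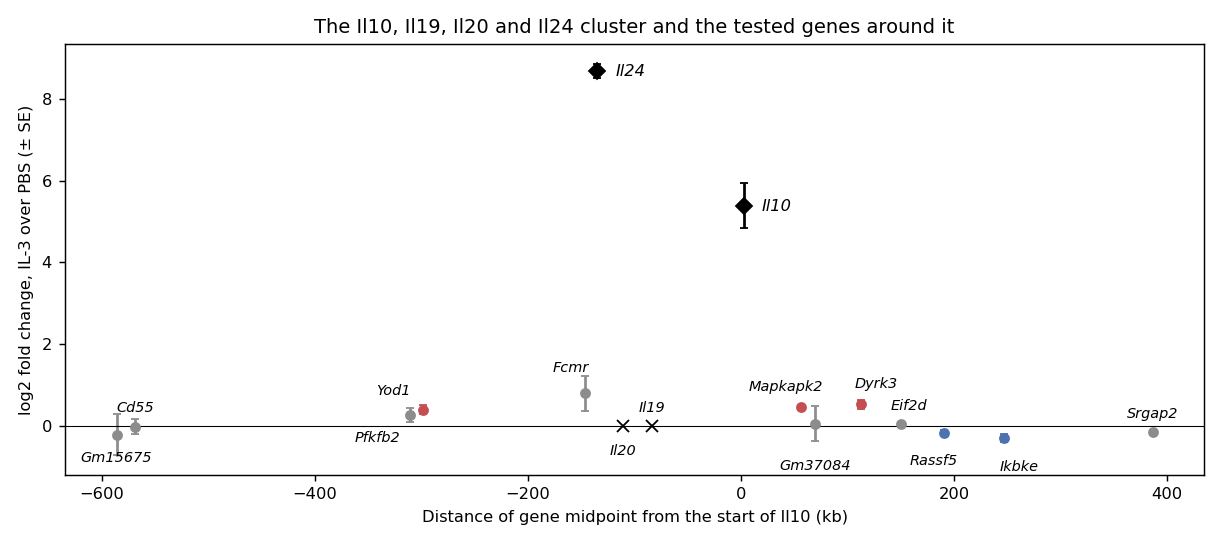
Log2 fold change with IL-3 over PBS supernatant (± SE of the fit) for Il24 and Il10 (diamonds) and the 12 tested genes within 500 kb of the cluster (circles; red called higher, blue called lower, grey not called), by distance of the gene midpoint from the start of Il10. Il24 at 8.68 and Il10 at 5.39 stand above all tested neighbours, the highest of which is Fcmr at 0.80; crosses mark Il20 and Il19, too low to test and drawn at 0 for their position only.

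The receptor chains were expressed in both groups. Il10ra (chr9:45253837-45269149, minus strand), the ligand-binding chain of the IL-10 receptor, had 27.9, 30.2 and 28.8 CPM with PBS supernatant and 34.5, 37.0 and 38.2 CPM with IL-3 supernatant. The IL-3 supernatant libraries were all above the PBS supernatant libraries, by a small margin. Means of 29.0 ± 1.15 and 36.6 ± 1.88 CPM (SD, n = 3 per group) gave a log2 difference of 0.34 (SE 0.08), or 1.26-fold. Leaving out single libraries gave 0.30 to 0.38.

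Il10rb (chr16:91406164-91425834, plus strand), the chain shared by the receptors of IL-10, IL-22 and the lambda interferons, differed in the other direction. It had 37.7, 42.6 and 42.5 CPM with PBS supernatant and 25.2, 22.02 and 23.9 CPM with IL-3 supernatant. All IL-3 supernatant libraries were below all PBS supernatant libraries. Means of 40.9 ± 2.77 and 23.7 ± 1.59 CPM (SD, n = 3 per group) gave a log2 difference of -0.79 (SE 0.09), or 1.73-fold lower. Of the windows of 50 bases in its main transcript 71.0% are its own and the rest are shared with the overlapping gene model Gm21970, which had 0 counts.

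Because the chains differed in opposite directions, their balance differed too. Per length, Il10rb exceeded Il10ra 2.55-, 2.75- and 2.93-fold in the PBS supernatant libraries and 1.38-, 1.12- and 1.25-fold in the IL-3 supernatant libraries. The ratio was lower in every IL-3 supernatant library, with Il10rb still the more abundant chain in all 6. Il10ra itself spanned only 16.0 to 16.1 TPM with PBS supernatant and 19.3 to 21.6 TPM with IL-3 supernatant, while Il10rb spanned 40.6 to 47.2 and 23.1 to 27.0 TPM.

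**Figure D3:**
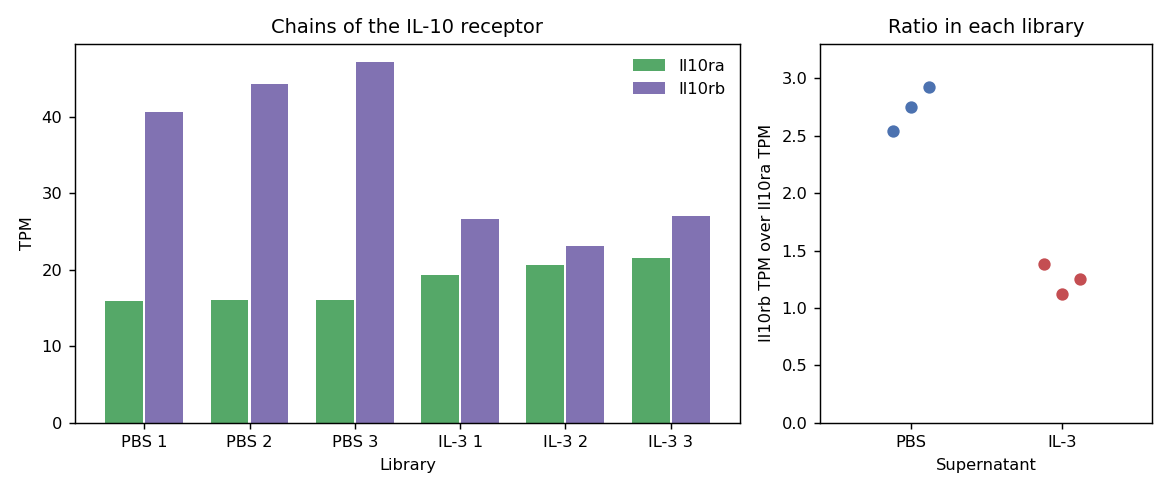
Left, TPM of Il10ra (green) and Il10rb (purple) in each library, with bars from 0; right, their ratio per library. The ratio of Il10rb to Il10ra lies between 2.55 and 2.93 in the PBS supernatant libraries and between 1.12 and 1.38 in the IL-3 supernatant libraries.

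Il20rb (chr9:100457719-100486788, minus strand), the chain common to the receptors of IL-19, IL-20 and IL-24, was low and variable. It had 2.00, 2.88 and 6.33 CPM with PBS supernatant and 2.42, 2.97 and 2.45 CPM with IL-3 supernatant. The groups overlapped, and PBS supernatant replicate 3 alone was high. The log2 fold change of -0.51 (SE 0.36) became 0.10 without that replicate. In PBS supernatant replicate 2, the library with isoform values, the protein-coding Il20rb-201 accounted for 0.591 TPM and the processed transcript Il20rb-205 for 1.83 TPM, so most of the signal there was not of the coding isoform.

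The partner chains Il22ra1 and Il20ra, which complete the receptors of IL-22, IL-20, IL-24 and IL-19, were at or near the limit of detection. Il22ra1 and Il22ra2, the latter encoding a soluble IL-22 binding protein, had 0 counts in all 6 libraries. Il20ra had 4 counts, all in PBS supernatant replicate 2. Hence both chains of the IL-10 receptor were detected in every library, whereas Il22ra1 was not detected in any and Il20ra was not detected in 5 of 6.

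Ordered by TPM with PBS supernatant, Il10rb came first, then Il10ra and Il20rb, without overlap between these 3. Il24, Il10 and Il22 followed, with Il24 overlapping Il10 and Il10 overlapping Il22. With IL-3 supernatant Il24 came first at 294 ± 31.4 TPM, followed by Il10rb at 25.6 ± 2.15 TPM. Il10ra at 20.5 ± 1.13 TPM and Il10 at 20.2 ± 2.83 TPM overlapped, as did Il22 at 2.69 ± 0.776 TPM and Il20rb at 2.31 ± 0.560 TPM (SD, n = 3).

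Of 13 other genes of the class II cytokine family, 6 could be tested, with a median log2 fold change of -0.0039. Of these 6, 2 were called higher and 3 lower, against 14.8% and 16.1% of all tested genes. This list and those that follow were chosen with earlier results of these data known, so their counts of calls are descriptions. Ifng, the type II interferon, went from 876 ± 57.3 to 1701 ± 41.6 CPM (log2 fold change 0.96, SE 0.05, edgeR adjusted p = 7.5e-10). The chains of its receptor moved apart. Ifngr1, which binds the ligand, fell from 96.5 ± 4.64 to 33.0 ± 2.36 CPM (log2 fold change -1.55, SE 0.07, edgeR adjusted p = 6.0e-11), and the signalling chain Ifngr2 rose from 4.13 ± 0.735 to 11.3 ± 1.32 CPM (log2 fold change 1.45, SE 0.17, edgeR adjusted p = 4.8e-06). Ifnar2, a type I interferon receptor chain, fell from 42.3 ± 1.71 to 25.0 ± 1.52 CPM (log2 fold change -0.76, SE 0.08, edgeR adjusted p = 2.5e-06). Its partner Ifnar1 fell by 0.23 (SE 0.06, edgeR adjusted p = 0.011), a call lost without PBS supernatant replicate 2 (edgeR adjusted p = 0.104) or IL-3 supernatant replicate 2 (edgeR adjusted p = 0.061). F3, the tissue factor gene, was not called (edgeR adjusted p = 0.654). Of the lambda interferon genes, Ifnl2 and Ifnl3 had 0 counts in all libraries and their receptor chain Ifnlr1 had 3 counts with PBS and 13 with IL-3 supernatant.

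Il10rb sits among 3 of these genes on chromosome 16. Ifnar2 ends 0.575 kb before it, Ifnar1 lies 59.404 kb and Ifngr2 121.238 kb beyond it, all on the plus strand. Ifnar2, Il10rb and Ifnar1 were lower with IL-3 supernatant, at log2 fold changes of -0.76, -0.79 and -0.23, while Ifngr2 was higher at 1.45. Of the 7 tested genes within 200 kb of Il10rb, 1 was called higher and 3 lower, against 14.8% and 16.1% of all tested genes.

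A list of 17 genes that carry or restrain cytokine signals, among them those of the IL-10 receptor, was tested in full. Their median log2 fold change was 0.08. Of these 17, 8 were called higher and 6 lower, against 14.8% and 16.1% of all tested genes. Jak1, the kinase bound to Il10ra, fell from 340 ± 5.18 to 250 ± 8.65 CPM (log2 fold change -0.45, SE 0.05), whereas Tyk2, the kinase bound to Il10rb, stood at 55.7 ± 0.994 and 58.8 ± 5.85 CPM and was not called (edgeR adjusted p = 0.496). Stat3 rose from 319 ± 11.8 to 490 ± 15.3 CPM (log2 fold change 0.62, SE 0.05, edgeR adjusted p = 8.3e-08). Socs3, the Stat3-induced feedback inhibitor, rose from 15.4 ± 1.54 to 30.1 ± 1.09 CPM (log2 fold change 0.97, SE 0.10). Among the other calls with small p were those of Stat5a (1.25), Jak2 (1.10) and Stat5b (0.74), which rose, and that of Socs2 (-1.38), which fell. Stat5 serves many cytokines outside the family, among them IL-2 and IL-3, and Jak2 serves IL-3. The kinases of the IL-10 receptor are Jak1 and Tyk2, so the counts of calls are not particular to that receptor.

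Of 24 genes known to respond to IL-10 or Stat3, 21 could be tested, with a median log2 fold change of 0.49. Of these 21, 12 were called higher and 4 lower, against 14.8% and 16.1% of all tested genes. The calls with the smallest p were increases of the AP-1 gene Fosl2 (log2 fold change 1.35, SE 0.07), the transcription factor gene Nfil3 (1.53, SE 0.09), Batf (1.08, SE 0.08), Junb (0.74, SE 0.06) and the IL-21 receptor gene Il21r (0.64, SE 0.06), and a decrease of the repressor gene Etv3 (-0.88, SE 0.07). Etv3 is known as an IL-10-induced gene of macrophages, so its direction differed from most of the list. Zfp36, Pim2 and Tnfrsf1b fell as well, and Pim2 was not called on TPM (limma adjusted p = 0.500). By counts Pim2 stood at 386 ± 9.39 and 273 ± 19.3 CPM, whereas its TPM spread widely with PBS supernatant (319 ± 94.8 TPM). PBS supernatant replicate 2 has summed isoform TPM, and the part of this in the spread was not tested.

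The 26 known regulators of Il10 in T cells, all tested, had a median log2 fold change of 0.21. Of these 26, 13 were called higher and 7 lower, against 14.8% and 16.1% of all tested genes. The list was not split by whether a gene activates or represses Il10, so these counts give no direction for Il10. Maf, an activator of Il10 in T cells, had counts of 4, 3 and 12 with PBS supernatant and of 148, 186 and 109 with IL-3 supernatant, without overlap. It rose from 0.358 ± 0.284 to 7.19 ± 1.45 CPM (log2 fold change 4.31, SE 0.38). Gata3, the type 2 lineage factor, rose from 12.7 ± 1.51 to 106 ± 7.51 CPM (log2 fold change 3.06, SE 0.09, edgeR adjusted p = 3.1e-13). Ahr, a ligand-activated factor linked to both Il10 and Il22, rose from 4.13 ± 0.814 to 9.32 ± 2.2 CPM (log2 fold change 1.17, SE 0.20, edgeR adjusted p = 2.8e-04). Nfil3, Batf and Junb belong to this list too and rose as given above.

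Not all activators of Il10 were higher. Prdm1, which encodes Blimp-1, fell from 6.69 ± 1.27 to 3.08 ± 0.679 CPM (log2 fold change -1.12, SE 0.22, edgeR adjusted p = 9.5e-04). Irf4 stood at 632 ± 8.35 and 610 ± 13.4 CPM and was not called (edgeR adjusted p = 0.490). Eomes (log2 fold change -1.86, SE 0.10) and Nfatc1 (-0.67, SE 0.05) fell too. The weakest lower call, Nfatc2 at -0.15, was lost whichever library was left out (edgeR adjusted p = 0.055 to 0.139). It was also lost with DESeq2 (DESeq2 adjusted p = 0.075) and with a block on replicate number (edgeR adjusted p = 0.093).

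**Figure D4:**
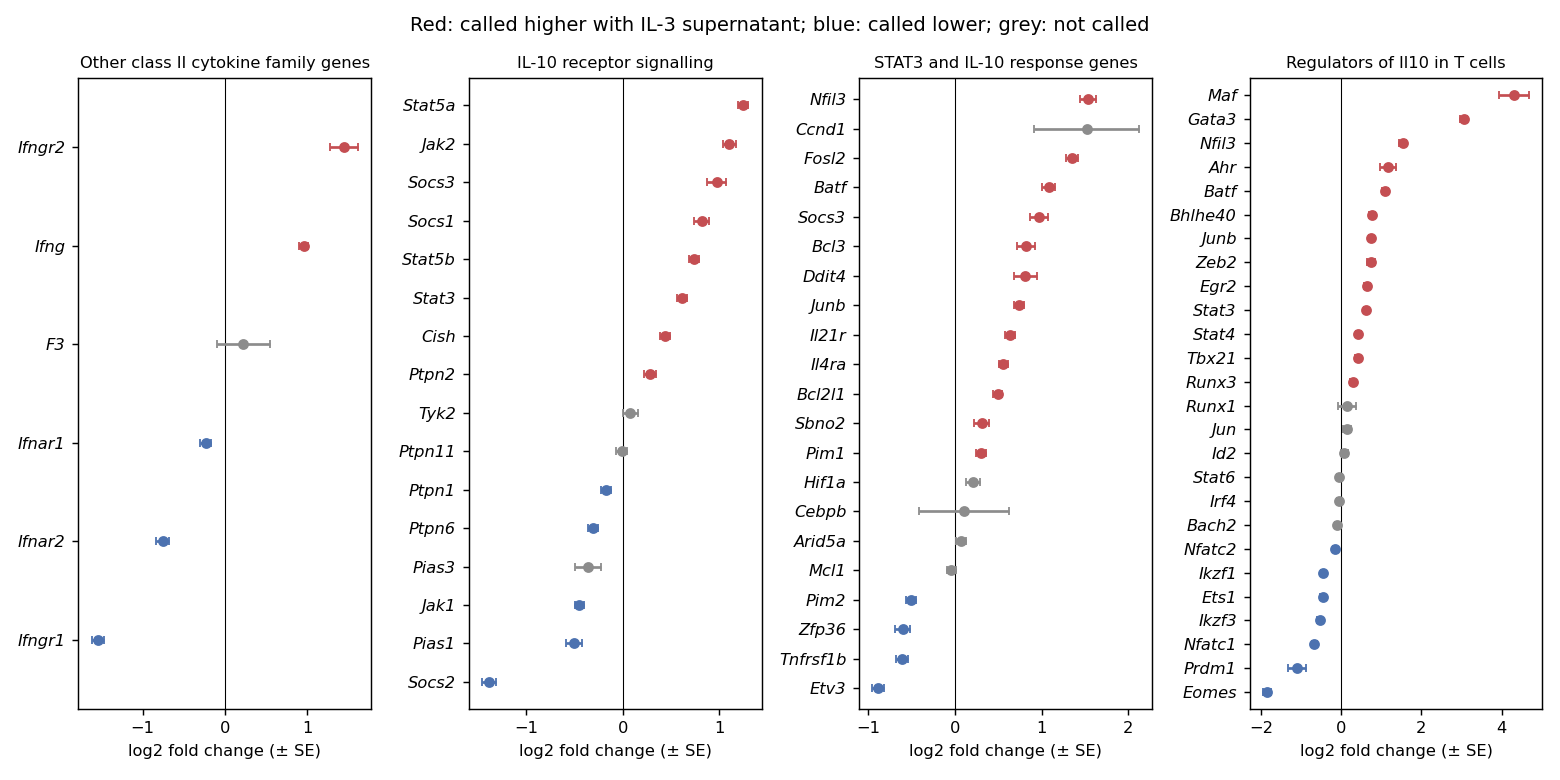
Log2 fold change with IL-3 over PBS supernatant (± SE of the edgeR fit) of the tested genes of 4 lists that are reported here, ordered within each list; red was called higher, blue lower and grey not called, and the axis range differs between panels. The lists were chosen with earlier results of these data known, so the counts of calls are descriptions. Among the Stat3 and IL-10 response genes 12 of 16 calls are increases. Maf at 4.31 and Gata3 at 3.06 are highest among the Il10 regulators, and Eomes at -1.86 is lowest among them.

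Of 14 type 2 cytokine and receptor genes, 11 could be tested, with a median log2 fold change of 3.06. Of these 11, 7 were called higher and 2 lower, against 14.8% and 16.1% of all tested genes. This list was known to contain large increases and is given only to place Il24 and Il10. Il13 reached 405 ± 40.2 TPM with IL-3 supernatant, somewhat above Il24 at 294 ± 31.4 TPM, and Il4 reached 13.0 ± 2.02 TPM, below Il10 at 20.2 ± 2.83 TPM (SD, n = 3).

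The genes whose pattern over the 6 libraries was most like that of a member were found by the root mean square difference of log2 CPM, each gene centred on its mean. For Il24 they were Inhba (0.712), which encodes an activin subunit, Il13 (1.01), Akr1c18 (1.16), Efna5 (1.38) and Il21 (1.43). For Il10 they were Timd2 (0.507), the kinase gene Lrrk2 (0.710), Efna5 (0.860), the chemokine receptor gene Ccr8 (0.881) and Slc13a3 (0.885). Efna5 was on both lists and had 0 counts in the PBS supernatant libraries. For Il10ra the closest were Slc39a1 (0.0239), Naa25, Ptcd1, Gypc and Rabggtb (0.0260), all with a small difference between groups. With 3 libraries per group such likeness mostly reflects the difference between the groups.

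Markers of other cells that make IL-10 family cytokines were measured in the same libraries. Of 11 basophil and mast cell markers, Mcpt8, Fcer1a, Ms4a2, Prss34 and Mcpt4 had 0 counts in all libraries, and the sum of the list was 3.99 to 4.95 CPM with PBS supernatant and 4.79 to 6.08 CPM with IL-3 supernatant, mostly Il3ra. Of 12 macrophage and monocyte markers, Spi1 was at 0 in all libraries, and the sum was 2.22 to 2.79 and 1.53 to 2.65 CPM. The 10 B cell markers summed to 296 to 327 and 115 to 136 CPM, almost all of it Ighm, and without it to 6.51 to 7.37 and 8.11 to 9.94 CPM. Besides Ighm, only Ebf1 and Ighd were called, in opposite directions. Ebf1 rose from 0.413 ± 0.188 to 4.76 ± 1.09 CPM and Ighd fell from 2.97 ± 0.387 to 0.564 ± 0.352 CPM. The 10 dendritic cell markers, led by Batf3, summed to 52.6 to 61.0 and 86.0 to 89.0 CPM, with Siglech at 0. Without Batf3 they summed to 27.2 to 31.9 and 30.3 to 36.2 CPM, which overlap. Most of that sum was Cd74, which was not called (24.0 ± 1.17 and 21.1 ± 2.19 CPM). Zbtb46 (3.82 ± 0.988 and 6.35 ± 1.22 CPM) and H2-Ab1 (1.52 ± 0.691 and 3.85 ± 0.0571 CPM) were called higher. The 7 markers of NK cells and innate lymphoid cells, with Klra8 and Klrg1 at 0, summed to 14.9 to 22.8 and 9.63 to 11.7 CPM. Most of this was Il1rl1, and without it the sums of 2.62 to 3.44 and 2.73 to 5.18 CPM overlapped. The 5 CD4 T cell markers summed to 36.7 to 42.3 and 22.4 to 23.9 CPM. Without Trib2, the highest of them, the sum turned to 14.1 to 16.0 and 18.1 to 20.0 CPM. Within that list Foxp3, the factor of regulatory T cells, had 87, 137 and 168 counts with PBS supernatant and 5, 4 and 1 with IL-3 supernatant. Zbtb7b, the CD4 lineage factor, stood at 4.85 to 8.24 and 16.9 to 19.4 CPM, and Cd4 itself at no more than 0.831 CPM in any library. The part of the dendritic, B, NK and CD4 T cell markers in the values of the members was not tested.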

How the data were processed

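The authors deposited expected counts by gene for each of the 6 libraries, which share out a read matching more than 1 gene or isoform and were not normalized. The authors also deposited TPM, by gene in 5 libraries and, for PBS supernatant replicate 2, by isoform. Those isoform values were summed per gene (99.5% of the TPM matched). Per the submitters' processing notes, RSEM 1.2.12, Bowtie2 2.2.0, edgeR 3.20.9 and GRCm38 were used, with no role or order given. Annotation and strand setting: not given in the sources used here.

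Expected counts were rounded and tested with edgeR 4.0.16 in R 4.3.3 (filterByExpr, TMM, robust quasi-likelihood fit on group, Benjamini-Hochberg over 12407 genes, threshold 0.05). Log2 fold changes are of IL-3 over PBS supernatant, with an SE derived from the F statistic. CPM use TMM-scaled library sizes. The steps were tested on simulated data. Symbols matched 46005 of 46517 identifiers, and positions are those of GENCODE vM21. No 2 libraries agreed within sampling noise.

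The members and all gene lists were chosen with earlier results of these data known. Named were all members, every other class II family gene, up to 6 called genes per list with the smallest p, a panel of signalling and regulator genes whatever the result, all called neighbours of the Il10 cluster and, for 3 members, the 5 closest profiles. Genes named outside this rule were chosen after their values were seen. These included Fcmr, Zfp36, Pim2, Tnfrsf1b, Nfatc2 and the cell type markers given singly, such as Foxp3, Zbtb7b, Ebf1 and Zbtb46. A result that would fall under the rule is not reported here. Alternatives tried were other tools (DESeq2 1.42.0, limma-voom, and limma 3.58.1 on log2 TPM with pseudocounts of 1 and 0.1), scaling by library size alone or by DESeq2's factors, a CPM filter at 1 or none, a block on replicate number, leaving out libraries in turn, and a threshold of 0.01. Python 3.11.15 with pandas 2.3.3 handled the tables.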

Additional observations from a re-analysis of the deposited data

How the results depend on the processing

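Il10ra and Il10rb kept their direction and size under all 16 alternatives. Leaving out single libraries gave log2 fold changes of 8.40 to 9.22 for Il24, 4.89 to 7.76 for Il10, 4.08 to 5.47 for Il22, 0.30 to 0.38 for Il10ra, -0.85 to -0.73 for Il10rb and -0.81 to 0.10 for Il20rb, whose sign turned at 0.10 without PBS supernatant replicate 3. On log2(TPM + 1), with or without the filter, Il24 had 7.45, Il10 3.95 and Il22 1.73, and on log2(TPM + 0.1) Il10 had 5.84 and Il22 3.90, since a pseudocount pulls in low levels. With limma-voom Il10 had 6.20. The count of genes called higher was 1103 on log2(TPM + 1) without a filter and 1217 at an adjusted p below 0.01, and that of genes called lower was 1324 on log2(TPM + 1), 1307 on log2(TPM + 0.1) and 1030 on log2(TPM + 1) without a filter, the cause of the TPM differences not being tested. Left-out libraries gave 1458 to 1916 higher and 1601 to 2102 lower genes. Among type 2 genes 1 was called lower on log2(TPM + 1) without a filter. Of the neighbours of the Il10 cluster, 1 was called lower with DESeq2 size factors, no filter, the replicate block, DESeq2 or limma-voom, 0 with library size only, on each TPM scale or at an adjusted p below 0.01, and 0 to 2 with a library left out. Same-numbered libraries did not pair (correlations of their deviations -0.149, 0.0517 and 0.255, and not every library was closest to its own number), and the replicate block gave 1634 higher and 1776 lower genes. Depth limits Il22, Il20 and Il19, with at most 39 counts in a library.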

Other observations

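Genes around the other members showed calls in both directions. The only tested gene within 200 kb of Il22, Mdm1, which encodes a centriolar protein, went from 13.9 ± 1.61 to 17.7 ± 1.00 CPM (log2 fold change 0.35, SE 0.11, edgeR adjusted p = 0.029). Of 3 tested genes within 200 kb of Il10ra, Mpzl3 rose by 1.47 on the log2 scale (SE 0.08) and Mpzl2 by 0.68 (SE 0.16), while Jaml, which encodes a junctional adhesion molecule of T cells, fell from 84.1 ± 3.08 to 24.8 ± 2.11 CPM (SD, n = 3). Nck1, an adaptor gene 5.505 kb from Il20rb, fell by 0.38 on the log2 scale. These genes were named after their values were seen.

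The isoform values of PBS supernatant replicate 2 put most Il10ra transcript in the protein-coding Il10ra-201 (13.3 TPM) and 2.61 TPM in Il10ra-203, which the annotation marks for nonsense-mediated decay. For Il10rb the coding Il10rb-201 held 39.0 TPM. All of the Il24 signal there, apart from 0.00348 TPM, was assigned to Il24-201 at 0.529 TPM. The other 5 libraries have values per gene, so isoforms were not compared between groups.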
